A study of Sus scrofa with 40 samples.

Results

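The genes described here copy, transcribe and process the mitochondrial genome (mtDNA) of pig (Sus scrofa) oocytes. They were taken from a fixed list of 40 gene symbols, which name 39 genes because TWNK also appears under its older symbol. A row was found for 37 of the 39 among 38794 rows that name a gene, 33 of them by symbol, TWNK as C14H10orf2, and DNA2, NRF1 and MTIF3 by their NCBI gene identifier. For POLRMT and TOP3A no row was matched, and they are not analysed here. By role, the 37 were 9 of 10 genes for replication and repair, 9 of 10 for the nucleoid and transcription, 7 regulators encoded in the nucleus, 10 for RNA processing and stability, and 2 for translation initiation.

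RNA was sequenced from 40 libraries of mature oocytes at metaphase II to compare mtDNA-deficient with mtDNA-normal cells. Pools comprised 5 mtDNA-deficient and 6 mtDNA-normal libraries, and single cells comprised 14 mtDNA-deficient and 15 mtDNA-normal oocytes. Titles of single oocytes carry BCBneg for every deficient and BCBpos for every normal oocyte, and those of pools carry neg and pos in the same way. The titles do not spell out this mark. Every library came from a commercial cross of the Large White, Berkshire and Duroc breeds. Apart from the title marks, no treatment, age or genotype is named in the labels. The labels give the mtDNA state but no copy number, do not say how many oocytes each pool held, and do not tie replicates to separate animals. The p-values below therefore cover only the spread among these samples, which may be technical.

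A mammalian mitochondrial genome is copied by a small set of proteins made in the nucleus: the polymerase POLG, the helicase TWNK and the single-strand binding protein SSBP1, with nucleases and a ligase to finish the strands. TFAM packages the DNA and, with TFB2M and the mitochondrial RNA polymerase, starts transcription, and the long transcripts are then cut, given a poly(A) tail, held stable or degraded by a further set of proteins. An oocyte gathers its mtDNA before fertilisation, since the early embryo divides with little mtDNA replication, and the regulators PPARGC1A, NRF1 and the GABP complex are known for switching on the nuclear genes of this machinery in other tissues.

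Pools held 14480546 to 29538982 counts and single oocytes 706929 to 3067523. Values below are CPM, each gene's count scaled to a common total over the rows that name a gene. CPM is not scaled to gene length, so levels are compared between libraries for 1 gene and never between genes. Oocyte markers were high in both library types, with 8 of 10 marker rows at a mean of 10 CPM or more in each group and a summed level of 2919 to 9767 CPM in pools and 1434 to 5762 CPM in single oocytes. The 15 rows of cumulus and granulosa markers summed to 96.2 to 204 CPM in deficient pools and 130 to 198 CPM in normal pools, against 31.2 to 83.1 CPM in deficient and 14.7 to 63.2 CPM in normal single oocytes. Of these, AMH was at 0 in every library, and 3 rows in pools and 2 in single oocytes reached a mean of 10 CPM. Leukocyte and blood markers summed to at most 4.59 CPM. In a pool, fewer cells of a type and less RNA per cell cannot be told apart.

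In pools, no gene of the set passed the test between mtDNA states. Of the 37 genes, 30 passed the filter on low counts, 16 with a higher and 14 with a lower estimate in deficient pools, and the median log2 difference was 0.10, beside 0.00 over all 13540 genes tested. The quasi-likelihood test of edgeR called 0 of the 30, as it called 0% of all genes at an adjusted p under 0.05. At an unadjusted p under 0.05 it held 2 of the 30, beside 5.36% of all genes. DESeq2, which tested 34 of the set, called 0, with 8 at an unadjusted p under 0.05 beside 6.43% of all genes, and limma-voom called 0 of 30, with 3 beside 5.47%. No gene of the set had values that did not overlap between the 5 deficient and the 6 normal pools, a pattern shown by 100 genes, 0.407% of the 24562 with a count.

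**Figure D1:**
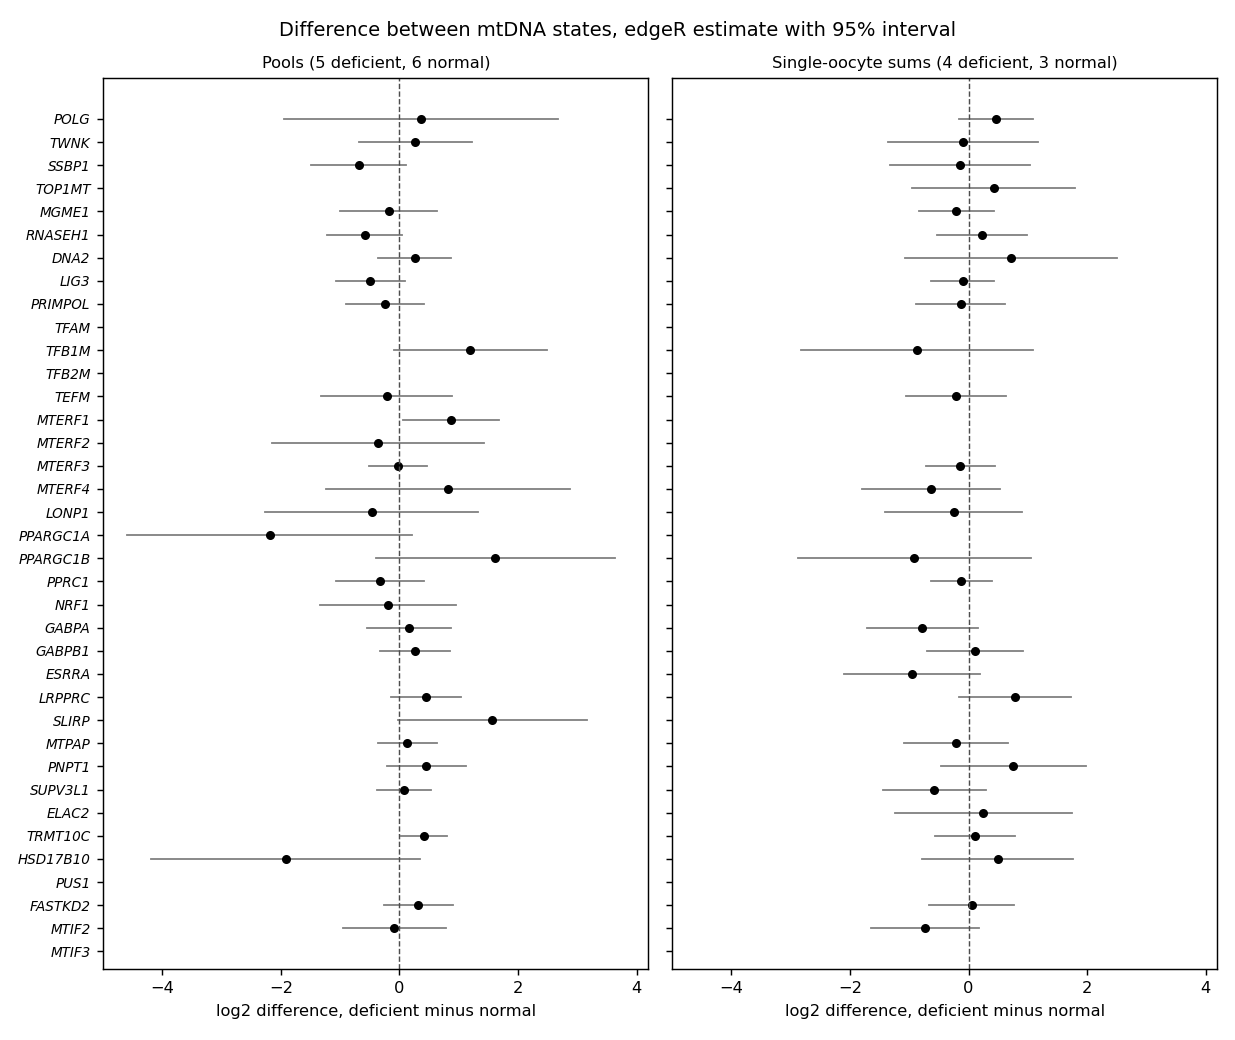
Log2 difference between mtDNA-deficient and mtDNA-normal oocytes for each gene (points, edgeR estimates) with its 95% confidence interval (lines), in pools on the left and in sums of single oocytes on the right. Genes without a point did not pass the filter on low counts, and MTERF1 and TRMT10C in pools were the 2 whose unadjusted interval did not reach 0.

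Among the replication genes, 8 of 9 were tested in pools and 0 passed (3 positive, 5 negative estimates). POLG, the catalytic subunit of the mtDNA polymerase, was close to the limit of detection, with 0.465, 0, 0.794, 0.859 and 0.836 CPM in deficient pools A1, A2, A3, B2 and B4 and a range of 0 to 0.921 CPM around a median of 0.641 in normal pools. These values rest on 69 and 76 counts in all, and the groups overlapped fully (log2 difference 0.37, 95% interval -1.94 to 2.67, edgeR adjusted p = 0.972). TWNK, the replicative helicase, had 7.63, 5.66, 2.29, 3.75 and 9.02 CPM in the same deficient pools, against a range of 1.60 to 8.70 and a median of 5.19 CPM in normal pools (log2 difference 0.27, interval -0.68 to 1.22, edgeR adjusted p = 0.951).

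SSBP1, which coats single-stranded mtDNA, had 5.82, 5.59, 4.10, 3.91 and 3.78 CPM in deficient pools, against a median of 9.89 CPM in normal pools. Of the 6 normal pools, 5 lay between 8.23 and 11.6 CPM, above all deficient pools, and pool A3 at 2.48 CPM lay below all of them. The log2 difference was -0.69 (SE 0.37, interval -1.48 to 0.10, edgeR adjusted p = 0.921). RNASEH1, which removes RNA primers, followed a like order with 9.03, 11.1, 11.6, 13.2 and 6.69 CPM in deficient pools and 8.98 to 26.2 CPM, median 18.5, in normal pools, where 5 of the 6 lay above every deficient pool and A3 was again the exception. Its log2 difference was -0.59 (SE 0.30, interval -1.22 to 0.04, edgeR adjusted p = 0.921). The share of RN18S, a ribosomal RNA row, was 0.177% to 0.441% in deficient pools and 0.175% to 1.30% in normal pools, lowest of all in normal pool A3. Normal pool B1 had a share of 0.196%, with SSBP1 at 8.23 CPM and RNASEH1 at 20.1 CPM, both above every deficient pool. The part of RN18S in these differences was not tested. The helicase-nuclease DNA2 varied least in deficient pools, at 68.8 ± 4.48 CPM (SD, n = 5), against 61.8 ± 20.5 CPM in normal pools (SD, n = 6). MGME1, a nuclease that trims DNA ends, LIG3, the ligase that seals them, and PRIMPOL, a primase and polymerase, had estimates of -0.49 to -0.18.

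Of the transcription genes, 7 of 9 were tested in pools, 3 with positive and 4 with negative estimates, and 0 passed. TFAM, the packaging and initiation factor, had 29 counts in all 11 pools: 0.326 CPM in A1 and 0.880 CPM in B4 of the deficient pools and 0.0727 CPM in normal pool B2, with 0 in the other 8. TFB2M, the other initiation factor, had no count in any of the 40 libraries. Absence of its RNA and a failure to count it cannot be told apart here. MTERF1, which binds mtDNA and can end transcription at its site, had 11.9, 5.52, 4.15, 4.06 and 8.53 CPM in deficient pools, against 3.27 to 5.15 CPM, median 4.00, in normal pools. Deficient pools A1, A2 and B4 lay above all normal pools and A3 and B2 within their range, and the log2 difference of 0.86 (SE 0.38, interval 0.05 to 1.67) had an unadjusted p of 0.0384 and an edgeR adjusted p of 0.903. TFB1M, which methylates the small mitochondrial ribosomal RNA, had 1.54, 1.93, 4.72, 0.977 and 1.94 CPM in deficient pools and 0.504 to 2.29 CPM, median 1.11, in normal pools (log2 difference 1.20, interval -0.10 to 2.49, edgeR adjusted p = 0.921). LONP1, a matrix protease that degrades TFAM, had 2.42, 0, 1.41, 6.37 and 2.07 CPM in deficient pools against 0.367 to 8.91 CPM, median 3.15, in normal pools (log2 difference -0.47, interval -2.27 to 1.33, edgeR adjusted p = 0.957). The elongation factor TEFM and the mTERF family members MTERF2, MTERF3 and MTERF4 had estimates of -0.36 to 0.81, MTERF3 being the most even, with deficient pools at 66.0 ± 6.18 CPM and normal pools at 73.0 ± 10.7 CPM (SD, n = 5 and 6).

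Regulators gave 3 positive and 3 negative estimates among the 6 of 7 tested in pools, and 0 passed. PPARGC1A, a coactivator that drives mitochondrial gene expression, was low: 0.140, 0.552, 0.132, 0.117 and 0.396 CPM in deficient pools, from 26 counts, against 0 to 3.99 CPM with a median of 0.827 in normal pools, from 170 counts. Normal pools A2, A3, A4 and B4 lay above all deficient pools, and B1 and B2 did not. Its log2 difference was -2.19 (SE 1.14, interval -4.60 to 0.22, edgeR adjusted p = 0.921). Normal pool A3 held 87 of the 170 counts. PPARGC1A passed the filter on low counts in only 14 of the 18 alternatives. It did not pass when any 1 of normal pools A2, A3, A4 or B4 was left out. The related coactivator PPARGC1B had 0.977, 0, 1.59, 0.391 and 8.67 CPM in deficient pools, against 0.306 to 1.18 CPM, median 0.787, in normal pools (log2 difference 1.62, interval -0.40 to 3.63, edgeR adjusted p = 0.921). Without pool B4, whose 8.67 CPM stood apart, the estimate of PPARGC1B was 0.06. PPRC1, NRF1 and the GABP subunits GABPA and GABPB1 had estimates of -0.33 to 0.26.

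RNA processing was the role with the most even sign in pools, with positive estimates for 7 of 8 tested genes, beside 49.8% of all genes, and a median of 0.37, although 0 of the 8 passed. With library totals alone MTPAP and SUPV3L1 turned negative, leaving 5 of 8, beside 37.2% of all genes. DESeq2 tested all 10 genes of this role and gave 8 positive and 2 negative estimates. Among the negative was ELAC2, which did not pass the edgeR filter, at -2.90 (DESeq2 unadjusted p = 0.00537, adjusted p = 0.280). ELAC2 rests on few counts, 116 of them in normal pool B2. TRMT10C, the methyltransferase subunit of mitochondrial RNase P, had 303, 259, 277, 523 and 360 CPM in deficient pools and 208 to 356 CPM, median 276, in normal pools. Deficient pools B2 and B4 lay above all normal pools and the other 3 among them, with a log2 difference of 0.42 (SE 0.18, interval 0.03 to 0.80), an unadjusted p of 0.0358 and an edgeR adjusted p of 0.903. LRPPRC, which stabilises mitochondrial mRNAs, had 226, 150, 233, 110 and 308 CPM in deficient pools and 113 to 197 CPM, median 169, in normal pools (log2 difference 0.44, SE 0.28, interval -0.15 to 1.03, edgeR adjusted p = 0.921). Its binding partner SLIRP had 3.58, 4.83, 6.62, 5.82 and 0.0440 CPM in deficient pools, against 0.458 to 2.65 CPM, median 1.82, in normal pools. For SLIRP, 4 of 5 deficient pools lay above all 6 normal pools and B4 lay below them, and the log2 difference was 1.57 (SE 0.75, interval -0.03 to 3.17, edgeR adjusted p = 0.921). Among the 8 tested by edgeR the exception in sign was HSD17B10, another subunit of RNase P, where deficient pools averaged 0.159 ± 0.285 CPM and normal pools 0.619 ± 0.370 CPM (SD, n = 5 and 6). Its estimate was -1.92 with all pools and -3.87 without deficient pool B2, which held 17 of the 20 counts in deficient pools (edgeR adjusted p = 0.447 without it). MTIF2, which initiates mitochondrial translation, had 5.91, 4.35, 6.84, 11.8 and 2.95 CPM in deficient pools against 4.29 to 9.63 CPM, median 7.21, in normal pools (log2 difference -0.08, interval -0.95 to 0.78, edgeR adjusted p = 0.987). MTIF3, its companion factor, had no count in any library, with the same limit as TFB2M.

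For the test between states in single oocytes, counts of the 29 oocytes were added up within each state and leading number of the sample title. The labels do not explain this number. This gave 4 deficient sums (1, 2, 3 and 4) and 3 normal sums (2, 3 and 4). Sum 4 of each state joined oocytes of both dates in the column names, in unlike shares between the states. No gene of the set passed: 28 of 37 were tested, 11 with positive and 17 with negative estimates, and their median was -0.13, beside 0.00 over all 11964 genes tested. The balance depends on the scaling, since library totals alone gave 18 positive and 10 negative with a median of 0.08, beside 0.20 over all genes. edgeR called 0 of the 28, as it called 0% of all genes. At an unadjusted p under 0.05 edgeR held 0 of the 28, beside 1.93% of all genes, DESeq2 held 0 and limma-voom 1, and both also called 0 of the set. The row LOC102158401 alone held 58.5% ± 6.71 of counts in deficient and 64.2% ± 5.20 in normal oocytes (SD, n = 14 and 15), and RN18S took 3.89% ± 0.753 in deficient and 2.92% ± 0.645 in normal oocytes. With LOC102158401 left out of the totals, 0 of 28 passed again, and with sums also split by date 0 of 27 passed. The part of RN18S in these estimates was not tested.

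POLG, near the floor in pools, had a count in all 29 single oocytes, with 45.5 to 177 CPM around a median of 81.0 in deficient and 39.9 to 111 CPM around a median of 63.1 in normal oocytes. Summed, deficient oocytes had 61.6, 139, 88.5 and 90.5 CPM and normal oocytes 60.7, 54.0 and 75.2 CPM. Deficient sums 2, 3 and 4 lay above all normal sums and sum 1 among them. Each of the 3 that share a number with a normal sum was the higher of the pair, and the difference did not pass (log2 difference 0.46, SE 0.30, interval -0.17 to 1.08, edgeR unadjusted p = 0.139). That test did not use the pairs, and in the pair of number 4 the states mixed the dates in unlike shares. On the 6 sums with shared numbers POLG was at 0.55 with the number as a block (edgeR unadjusted p = 0.0209, adjusted p = 0.999). Without the block it was at 0.65 on the same sums (edgeR unadjusted p = 0.0363). TWNK had 1.74, 8.46, 5.95 and 4.66 CPM in deficient sums and 6.16, 5.14 and 3.51 CPM in normal sums (interval -1.35 to 1.17), and SSBP1 had 27.9, 1.61, 7.83 and 17.2 CPM in deficient sums and 15.1, 4.26 and 20.3 CPM in normal sums (interval -1.33 to 1.03), so both ranges of deficient sums enclosed those of normal sums. DNA2 had 0, 5.24, 3.91 and 7.23 CPM in deficient sums against 1.49, 2.63 and 2.31 CPM in normal sums (log2 difference 0.71, interval -1.07 to 2.50). Over the 3 numbers present in both states, 6 of 33 genes with a count had more CPM in the deficient sum of every pair (POLG, TWNK, DNA2, LRPPRC, SLIRP and HSD17B10), beside 12.2% of all genes, and 3 had less in every pair (MTERF1, GABPA and ESRRA), beside 4.93%.

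All 5 transcription genes tested in single oocytes had negative estimates, from -0.87 to -0.14, and 0 passed, while 49.7% of all genes had a positive one. With library totals alone 1 of the 5 was positive, beside 71.3% of all genes. TFB1M had 0, 0, 4.59 and 3.68 CPM in deficient sums and 1.91, 2.88 and 6.04 CPM in normal sums (interval -2.83 to 1.08). MTERF4, which acts in assembly of the mitochondrial ribosome, had 3.83, 1.61, 2.89 and 5.51 CPM in deficient and 5.10, 4.01 and 4.72 CPM in normal sums (log2 difference -0.64, interval -1.80 to 0.53). LONP1 had 4.53, 4.43, 3.23 and 4.66 CPM in deficient and 2.76, 3.13 and 7.58 CPM in normal sums (interval -1.41 to 0.91). For each of the 3 the values of the states overlapped.

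The regulators with the smallest p in single oocytes were ESRRA and GABPA. ESRRA, a nuclear receptor that works with PPARGC1A, had 4.88, 3.63, 1.19 and 6.25 CPM in deficient sums and 7.01, 5.77 and 6.70 CPM in normal sums. The log2 difference was -0.96 (SE 0.54, interval -2.10 to 0.19, edgeR unadjusted p = 0.0962), and only deficient sum 4 reached the range of the normal sums. GABPA, the DNA-binding subunit of GABP, had 2.79, 7.26, 8.85 and 13.7 CPM in deficient and 8.49, 11.3 and 17.5 CPM in normal sums (difference -0.78 on the log2 scale, SE 0.44, interval -1.72 to 0.16, edgeR unadjusted p = 0.0984), while its partner GABPB1 had an estimate of 0.11 (interval -0.71 to 0.92).

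RNA processing had mostly positive estimates in single oocytes, 6 of 8 tested, beside 49.7% of all genes, and 0 passed. With library totals alone it was 7 of 8, beside 71.3% of all genes. The genes were not the same as in pools. MTPAP and SUPV3L1 were positive in pools and negative here, and HSD17B10 the reverse. SLIRP was tested only in pools and ELAC2 only here. LRPPRC had 21.9, 32.6, 9.19 and 18.6 CPM in deficient and 16.1, 5.51 and 11.4 CPM in normal sums. Its log2 difference was 0.78 (SE 0.45, interval -0.16 to 1.73, edgeR unadjusted p = 0.0972), positive in all 20 alternative settings tried. These settings refit the same oocytes, so the shared sign is no separate support. Other genes of the set, MGME1, RNASEH1 and GABPA among them, also kept their sign throughout. SUPV3L1, the helicase of the RNA degradosome, had 8.01, 5.24, 18.5 and 21.7 CPM in deficient and 13.4, 20.1 and 17.2 CPM in normal sums (log2 difference -0.58, interval -1.44 to 0.29). Its partner PNPT1, the exoribonuclease, had an estimate of 0.76 (interval -0.47 to 1.98). MTIF2 had 6.62, 6.85, 10.9 and 13.6 CPM in deficient and 5.52, 16.8 and 18.0 CPM in normal sums (log2 difference -0.73, interval -1.64 to 0.18, edgeR unadjusted p = 0.109).

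Each single oocyte carries a date, 17 or 22, in its column name. Of the 16 genes of the set tested within both, 9 had estimates of opposite sign: POLG, PRIMPOL, LIG3, PPRC1, GABPB1, MTPAP, SUPV3L1, TRMT10C and FASTKD2. The share of all genes with opposite signs was not computed, so the count says nothing particular to the set. The widest gaps between dates were those of PRIMPOL, MTPAP, SUPV3L1 and POLG. On date 22, POLG had 118 ± 33.9 CPM in deficient oocytes, from 78.1 to 177, and 58.3 ± 14.3 CPM in normal oocytes, from 39.9 to 79.2 (SD, n = 6 each). With each oocyte as a sample its log2 difference there was 0.88 (edgeR unadjusted p = 0.00249, adjusted p = 0.453), in a fit where 6.54% of all genes had an unadjusted p under 0.05. On date 17, deficient oocytes had 73.3 ± 24.8 CPM of POLG (SD, n = 8) and normal oocytes 70.1 ± 21.4 CPM (SD, n = 9). The log2 difference from edgeR, which scales libraries further, was -0.15 (edgeR adjusted p = 0.956). Mean CPM of POLG was thus higher in deficient oocytes on both dates, and only the edgeR estimate changed sign. For PRIMPOL, deficient oocytes of date 22 had 20.3 ± 12.3 CPM against 35.5 ± 8.87 CPM for normal oocytes (log2 difference -1.05, edgeR adjusted p = 0.622), and those of date 17 had 28.3 ± 13.3 CPM against 13.9 ± 7.37 CPM for normal oocytes (log2 difference 0.79, edgeR adjusted p = 0.825). The difference between dates was not tested, and oocytes of 1 title number may share a source. With each oocyte as a sample, the p-values cover the spread among oocytes and not among replicates. Oocytes of date 22 carry title numbers 2 and 4, and those of date 17 carry 1, 3 and 4, so date and title number cannot be fully told apart.

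Whether the state difference itself differed between library types was tested as an interaction over 11 pools and 7 sums, as the pooled minus the single-oocyte difference. edgeR called 0 of 34 tested genes of the set, as it called 0% of the 17643 genes, and held 2 at an unadjusted p under 0.05, beside 5.32% of all genes. DESeq2 also called 0 of 35, with 5 at an unadjusted p under 0.05 beside 4.18% of all genes, and limma-voom 0 of 34, with 3 beside 2.75%. ELAC2, which cuts the 3′ ends of mitochondrial transfer RNAs, was 1 of the 2: deficient pools averaged 0.143 ± 0.123 CPM and normal pools 1.23 ± 1.52 CPM (SD, n = 5 and 6), while deficient sums averaged 6.04 ± 4.96 CPM and normal sums 4.23 ± 2.40 CPM (SD, n = 4 and 3). The interaction was -3.02 (SE 1.41, edgeR adjusted p = 0.904), and normal pool B2, with 116 of the 192 counts of ELAC2 in normal pools, stood apart from the others. NRF1 was the other, and since its normal sums were all at 0, no fold is given. Intervals of the interaction were wide: -2.58 to 2.54 for POLG, -1.29 to 2.03 for TWNK, -2.05 to 1.04 for SSBP1, -2.64 to 2.27 for LONP1, -1.36 to 0.77 for LRPPRC and -0.73 to 2.06 for MTIF2. PPARGC1A had no count in single oocytes and TOP1MT none in pools. Their interactions could therefore not be estimated, although both are among the 34 tested.

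Pools and single oocytes differed for most genes of the set. In 1 model over 11 pools and 7 sums with state as a covariate, 13 of 34 tested genes were higher in pools, beside 31.9% of all 17643 genes, and 12 were lower, beside 35.3%. The 25 of 34 past the threshold are thus near the share of all genes, and the count says nothing particular to the set. Extraction, amplification kit and pooling differed together between the types and cannot be told apart. LOC102158401, at most 0.0275% of counts in any pool, lowers every other CPM in oocytes, and with it left out of the totals the fit again gave 13 higher and 12 lower. Cumulus and granulosa markers summed higher in pools, as given above, but with that row left out the sums overlapped, at 96.2 to 204 CPM in pools and 51.8 to 231 CPM in single oocytes. Of 9 such markers tested, 2 were higher and 4 lower in pools. Their part in the differences was not tested. The split of calls depends on the scaling: 47.5% of all called genes were higher in pools with TMM scaling (edgeR's trimmed mean normalization), against 57.5% with library totals alone and 35.1% with DESeq2, and the set gave 15 higher and 9 lower, and 13 higher and 16 lower, in the other 2. The median over all genes was -0.17 with TMM, 0.32 with library totals and -1.66 with DESeq2, and log2 differences of the set are to be read against it.

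**Figure D2:**
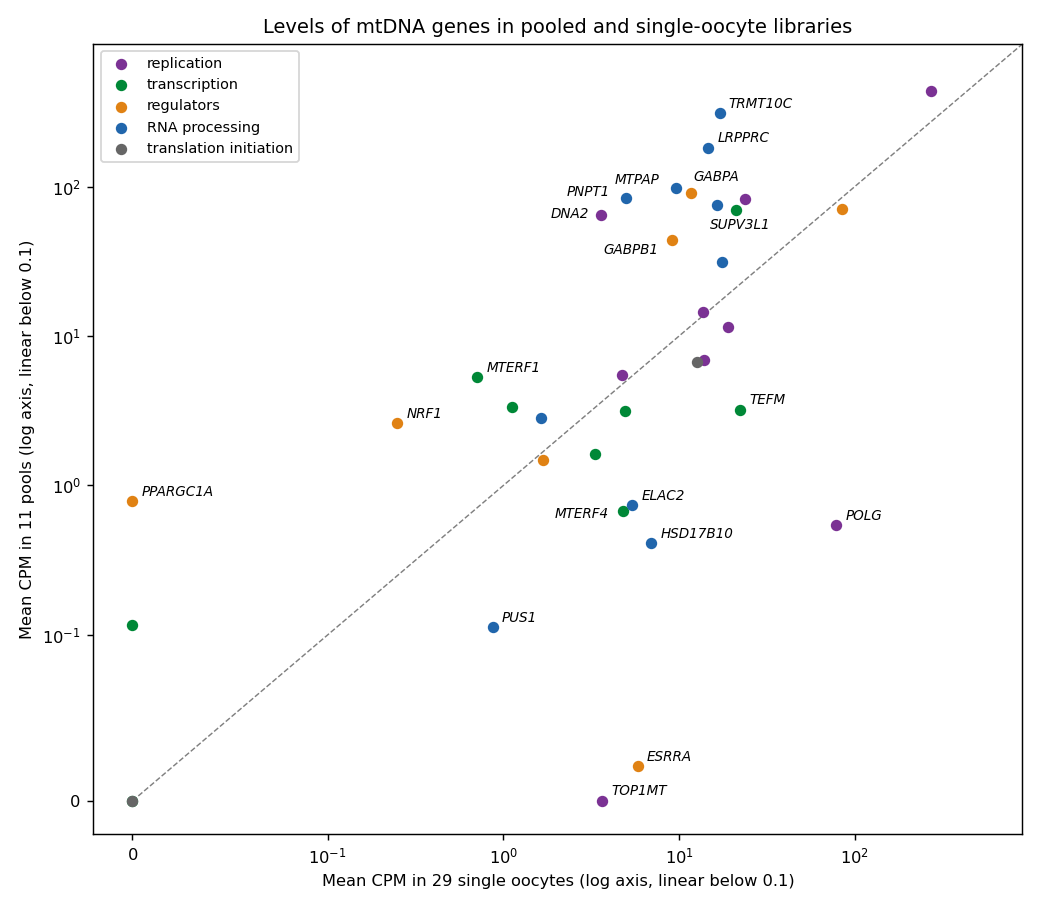
Mean CPM of each gene in the 11 pools (vertical axis) against its mean in the 29 single oocytes (horizontal axis), both on a log axis that is linear below 0.1, colored by role, with the dashed line marking equal means. Genes far from the line are named: TRMT10C, LRPPRC, PNPT1 and DNA2 lie above it, and POLG, ESRRA and TOP1MT lie furthest below it.

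The replication genes split in both directions, with 2 of 9 higher and 4 lower in pools. Pools averaged 65.0 ± 15.2 CPM of DNA2 and single oocytes 3.60 ± 3.48 CPM (SD, n = 11 and 29), and every pool, from 35.2 CPM, lay above every oocyte, up to 12.2 CPM. Its log2 difference was 3.92 (SE 0.39, edgeR adjusted p = 2.97e-09). POLG showed the reverse, with 145 counts among 258149370 in all pools and 3183 among 41186495 in all single oocytes. That is 0.543 ± 0.377 CPM in pools, at most 0.921, and 78.4 ± 31.2 CPM in single oocytes, at least 39.9, with no overlap (log2 difference -7.65, SE 0.48, edgeR adjusted p = 6.04e-13). TOP1MT, the mitochondrial topoisomerase, had no count in any pool and 133 counts in 27 of 29 single oocytes, at least 278-fold lower in pools by summed counts, against a floor of 3 counts over all pools. SSBP1 and MGME1 were lower in pools by log2 differences of -1.50 and -1.15, and PRIMPOL was higher by 1.40 (edgeR adjusted p = 0.000907, 0.000694 and 5.11e-05), while TWNK (-0.44, interval -1.25 to 0.37), RNASEH1 (-0.40, interval -0.94 to 0.14) and LIG3 (0.12, interval -0.33 to 0.56) did not pass.

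**Figure D3:**
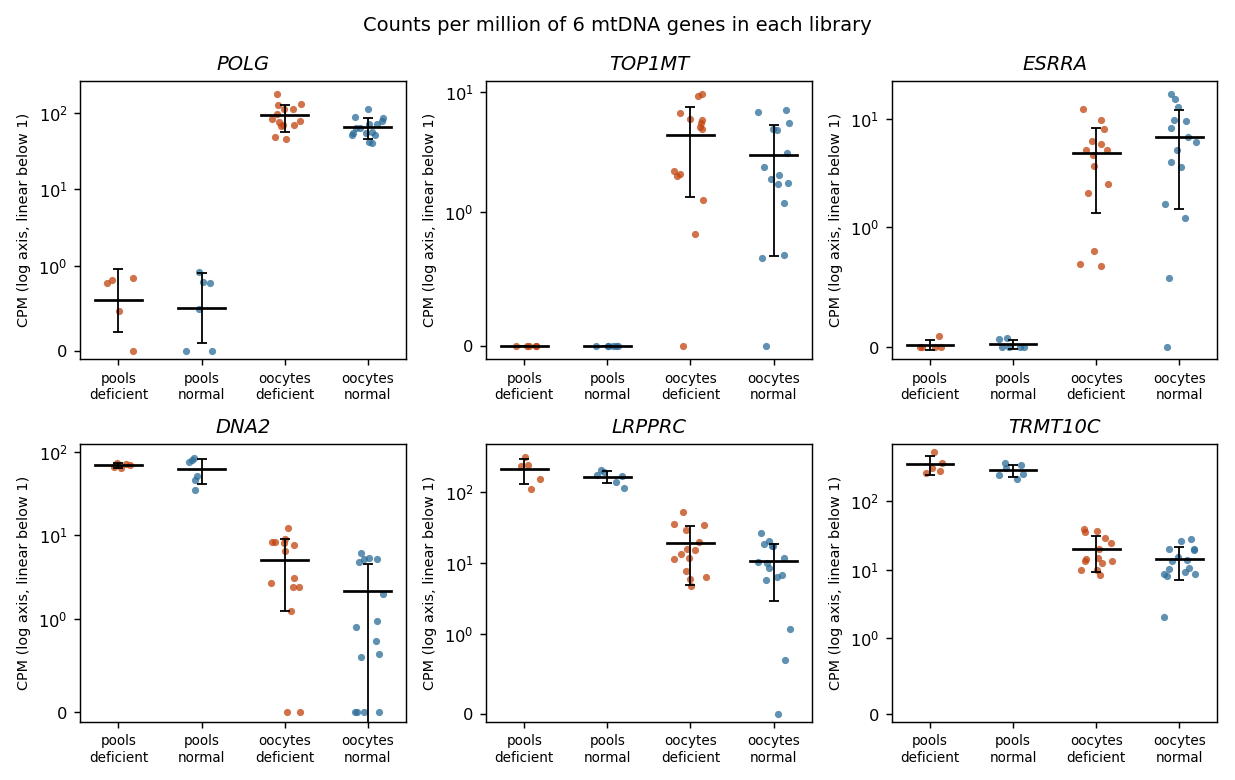
CPM of 6 genes in every library, on a log axis that is linear below 1, in deficient and normal pools and in deficient and normal single oocytes (points; bars mark the mean and SD of 5, 6, 14 and 15 libraries). POLG, TOP1MT and ESRRA are near 0 in pools and higher in single oocytes, DNA2, LRPPRC and TRMT10C are higher in pools, and in each panel the deficient and normal values of 1 library type overlap.

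In the transcription group, 2 genes were higher in pools, MTERF1 (log2 difference 2.57, edgeR adjusted p = 9.54e-05) and MTERF3 (1.35, edgeR adjusted p = 6.86e-07), and 2 were lower, TEFM (-3.29, edgeR adjusted p = 8.11e-09) and MTERF4 (-3.07, edgeR adjusted p = 0.000144). TEFM, which keeps the mitochondrial RNA polymerase moving, stood at 3.21 ± 1.83 CPM in pools, against 22.2 ± 12.2 CPM in oocytes (SD, n = 11 and 29). TFAM had no count in 29 single oocytes, which over their 41186495 counts allows a level of up to 0.0728 CPM for counting error alone. Its 29 counts in pools, 20 of them in deficient pool B4, amount to 0.112 CPM of the summed pools, and to 0.0382 CPM without B4. With LOC102158401 left out of the totals the limit in oocytes is 0.193 CPM, so no direction is given for TFAM. TFB1M, MTERF2 and LONP1 did not pass, with intervals of -2.64 to -0.02, -0.34 to 3.04 and -2.29 to 0.09, though TFB1M and LONP1 did in 5 alternatives each.

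Regulators were higher in pools for 4 of 7 and lower for 2. Both subunits of GABP were higher, GABPA by 2.69 (SE 0.33) and GABPB1 by 1.96 (SE 0.24) on the log2 scale (edgeR adjusted p = 8.38e-08 and 6.79e-08), and with no overlap between pools and oocytes in CPM for either gene unless LOC102158401 was left out of the totals. PPARGC1A, with 196 counts in pools and none in single oocytes, was at least 10.4-fold higher in pools by summed counts against 3 counts over all oocytes. The bound was 6.33-fold without normal pool A3, which held 87 of the 196 counts, and 3.93-fold with LOC102158401 left out of the totals, and the gene did not pass with limma-voom (adjusted p = 0.180). NRF1, a transcription factor for many nuclear genes of mitochondria, had 696 counts in pools and 10 in single oocytes, all 10 in 3 deficient oocytes, and its log2 difference was 3.22 (SE 0.84, edgeR adjusted p = 0.00165), which did not pass in deficient libraries alone (1.83, edgeR adjusted p = 0.147). ESRRA went the other way, with 6 counts in 3 of 11 pools and 221 counts in 28 of 29 oocytes (log2 difference -7.97, SE 0.71, edgeR adjusted p = 3.87e-10). PPRC1, a coactivator related to PPARGC1A, was lower by -0.87 (edgeR adjusted p = 0.00353), and PPARGC1B did not pass (interval -2.32 to 0.87).

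Among RNA processing genes, 5 of 10 were higher in pools and 3 lower. Pools had 310 ± 85.7 CPM of TRMT10C, against 20.1 ± 10.9 CPM for deficient oocytes and 14.2 ± 7.17 CPM for normal ones (SD, n = 11, 14 and 15), higher by 3.81 on the log2 scale (SE 0.19, edgeR adjusted p = 7.30e-15). HSD17B10, which joins it in RNase P, had 0.410 ± 0.398 CPM in pools against 6.96 ± 5.62 CPM in oocytes, a difference of -4.85 on the log2 scale (SE 0.72, edgeR adjusted p = 1.70e-06). The 2 subunits thus differed in opposite directions between library types. The degradosome pair PNPT1 and SUPV3L1 were both higher in pools, by 3.74 (SE 0.32) and 1.77 (SE 0.25), as were LRPPRC by 3.15 (SE 0.29) and the poly(A) polymerase MTPAP by 2.86 (SE 0.23), with edgeR adjusted p between 6.61e-11 and 1.11e-06. ELAC2 was lower by -4.24 (SE 0.83, edgeR adjusted p = 7.40e-05) and PUS1, which converts uridine to pseudouridine in transfer RNAs, by -3.16 (SE 0.91, edgeR adjusted p = 0.00371). SLIRP and FASTKD2, an RNA-binding protein of the mitochondrial RNA granule, did not pass (intervals -0.70 to 1.97 and -0.13 to 0.85). MTIF2 was lower in pools by -1.25 (SE 0.33, edgeR adjusted p = 0.00184). Across the set, 8 genes had every pool above every oocyte (DNA2, MTERF3, GABPA, GABPB1, LRPPRC, MTPAP, PNPT1 and TRMT10C) and 1, POLG, every pool below, beside 9.12% and 1.80% of the 27164 genes with a count. With LOC102158401 left out of the totals, 3 genes had every pool above (DNA2, PNPT1 and TRMT10C) and 2 every pool below (POLG and TEFM), beside 3.12% and 4.35%.

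In single oocytes, a count was found in all 29 oocytes for 13 genes of the set and in no oocyte for 4, TFAM, TFB2M, PPARGC1A and MTIF3, while 24 had a count in all 11 pools. The other 20 ranged from 3 oocytes for NRF1 to 28. After each oocyte was thinned to 706929 counts, POLG, MGME1, LIG3, PRIMPOL, TEFM, MTERF3, PPRC1, GABPA, SUPV3L1, TRMT10C and FASTKD2 still had a count in all 29, while GABPB1 had one in 26 and MTPAP in 27. MTERF2 had a count in 7 of 14 deficient and 4 of 15 normal oocytes, or 6 and 3 after thinning, and SLIRP in 7 and 6, or 6 and 3 after thinning.

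**Figure D4:**
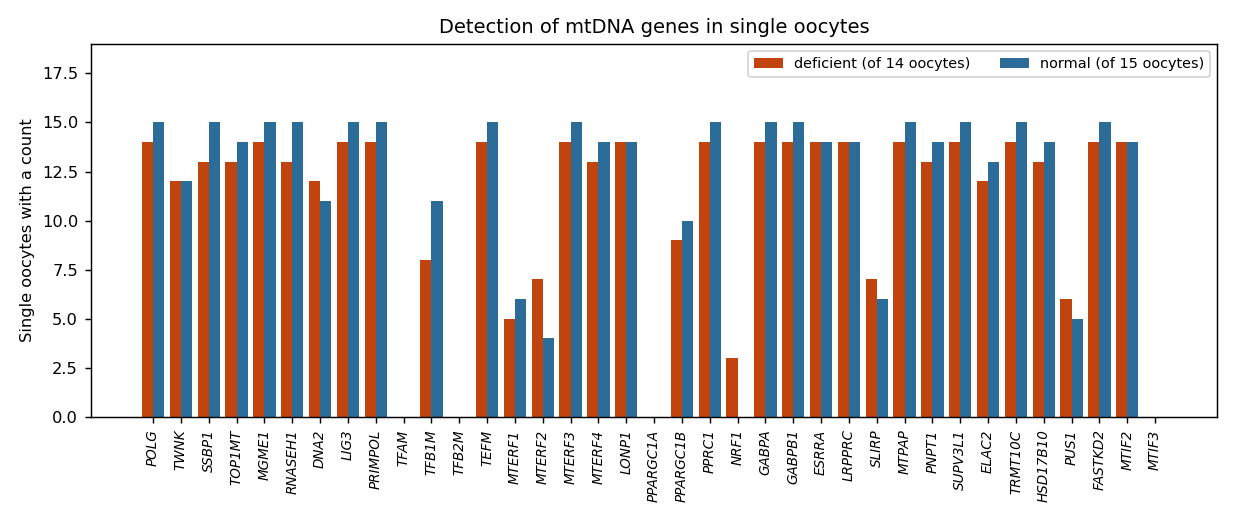
Number of single oocytes with at least 1 count of each gene, before thinning, for 14 deficient and 15 normal oocytes. TFAM, TFB2M, PPARGC1A and MTIF3 have none, NRF1 has 3 deficient and no normal oocytes, and 13 genes reach every oocyte of both states.

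Genes of neighbouring pathways gave the same picture between states, with 0 called by edgeR in pools, in single oocytes or in the interaction in any of 4 lists: mtDNA maintenance (9, 9 and 11 tested), mitochondrial RNA modification and turnover (16, 13 and 18), translation factors (8, 7 and 9) and upstream regulators (9, 8 and 9). At an unadjusted p under 0.05 were MTFMT, which formylates the initiator transfer RNA (log2 difference -0.72), and OXA1L, which inserts proteins into the inner membrane (-0.80), both in pools with an edgeR adjusted p of 0.903, and FASTKD1, a relative of FASTKD2, in single oocytes (-0.75, edgeR adjusted p = 1.00). These 3 were chosen after their values were seen. Between library types, 2 of 11 maintenance genes were higher and 4 lower in pools, with a log2 difference of 3.73 for RRM2B, a ribonucleotide reductase subunit. RNA modification and turnover gave 7 higher and 5 lower of 18, and translation factors 4 higher and 3 lower of 9. Of 9 upstream regulators, 7 were higher in pools and 0 lower, among them the deacetylase SIRT1 (2.24) and the receptor ESRRG (2.65), beside 31.9% of all genes higher. These counts were not tested as a list.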

How the data were processed

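The authors deposited raw, unnormalized counts for 38795 rows in each of 2 tables, 1 of pools and 1 of single oocytes. Tools named in the submitters' processing notes are TopHat2 2.0.14, Trim Galore, FastQC and edgeR, with build Sscrofa10.2. Neither counter nor strand setting is given in the sources used here, so overlapping antisense genes and near-identical copies cannot be told apart. Per the labels' protocols, pools were extracted with a column kit and amplified from a single primer, and single oocytes were extracted in the tube and prepared with a kit that depletes unwanted pig transcripts. The 1 row per table that names no gene, 1.05% to 4.75% of the counts of pools and 0.648% to 8.15% of those of oocytes, was left out. Gene names came from the files and from name tables of Sscrofa11.1.

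All genes were fitted in R 4.3.3 with edgeR 4.0.16 (default low-count filter, TMM, quasi-likelihood F test) and Benjamini-Hochberg adjustment over all genes tested, with a threshold of 0.05. DESeq2 1.42.0, limma-voom (limma 3.58.1), other scalings and filters, left-out libraries, blocks and dates were alternatives. The fits were tried on simulated counts with planted differences larger than most estimates between states here, and without dates or title numbers. This try says nothing about smaller differences. CPM and log2 differences were computed here from the deposited counts. The design text gives 5 pools per group, and 6 normal pools were used. No pair of libraries agreed within sampling noise (smallest chi-square per degree of freedom 35.0 in pools and 4.09 in oocytes).

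The genes, lists and tests were chosen with earlier results of these data known. Full values are given for a fixed set of genes, for the 2 of smallest p per role and state comparison, and for the 5 largest called differences in each direction between library types. Deviations of same-numbered sums correlated at 0.143 to 0.220, and each shared number matched best with its own. The title numbers come from the sample titles, and their meaning is not stated. The main test of the 7 sums did not use them as pairs, and a block on the 6 sums with shared numbers was an alternative. Counting floors use 3 counts and cover counting error only.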

Additional observations from a re-analysis of the deposited data

Results flagged for a closer look

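Within groups of 4 to 6 libraries or sums, 10 of 101 gene-by-group sets held 1 value far from the rest. The rule is set to flag about 5% of sets with a Gaussian spread, which CPM near 0 do not have. The share over all genes was not computed, so the 10 are not read as an excess. In deficient pools, TFB1M had 4.72 CPM in A3 (others at most 1.94), PPARGC1B 8.67 CPM in B4 (others at most 1.59), ESRRA 0.0882 CPM in A3 (others at 0) and HSD17B10 0.664 CPM in B2 (others at most 0.0882). In normal pools, SSBP1 had 2.48 CPM in A3 (others at least 8.23), TFAM 0.0727 CPM in B2 (others at 0), MTERF4 1.49 CPM in A2 (others at most 0.582), PPARGC1A 3.99 CPM in A3 (others at most 1.40) and ELAC2 4.22 CPM in B2 (others at most 1.16). In single oocytes, LONP1 had 3.23 CPM in deficient sum 3 (others 4.43 to 4.66). The values of ESRRA and TFAM rest on 2 counts each. Deficient pool A3, normal pool A3 and normal pool B2 each held 2 of the 10, and no cause was tested.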

How the results depend on the processing

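No gene of the set passed the test between states or in the interaction under any of the 18 alternatives for pools, 20 for single oocytes or 23 for the interaction, which include leaving out each pool or sum. Counts over all genes moved more: with DESeq2, 30 genes were higher and 22 lower in deficient pools. In single oocytes DESeq2 called 1 higher and 1 lower, library totals alone 1 higher, no filter 2 higher and 2 lower, each fit with oocytes as samples 1 lower, and date 17 alone 2 lower. In the interaction, no filter called 4 higher and 2 lower, and oocytes as samples 1 higher and 2 lower. With library totals alone the median of all genes was -0.14 in pools, 0.20 in single oocytes and -0.40 in the interaction, beside 0.00, 0.00 and -0.05 with TMM. Between states in single oocytes TWNK took the other sign in 8 of 15 alternatives and SSBP1 in 4 of 20 (0.08 and 0.05 with library totals alone), and the interaction of POLG in 9 of 23. Of the genes of the set tested, 10 in pools, 15 in single oocytes and 17 in the interaction changed sign in at least 1 alternative. In the paired analysis, the replicate block on the 6 sums with shared numbers called 0 genes higher and 2 lower, none of the set, with POLG at 0.55 (edgeR unadjusted p = 0.0209, adjusted p = 0.999). Deviations of same-numbered pools correlated at -0.10 to 0.48, with 3 of 4 numbers matching best with their own, so a pairing of pools was left undecided. The replicate block on these 8 pools called 0 genes, with 4 of the set at an unadjusted p under 0.05 (6.94% of all genes) against 0 without the block (3.93%). Between library types, 3968 genes were lower in pools in normal libraries alone, MGME1 did not pass with library totals alone, PPRC1 did not pass with library totals alone or in normal libraries alone, and MTIF2 did not pass with library totals alone or in deficient libraries alone. Of genes that did not pass, TFB1M and LONP1 passed in 5 alternatives each, RNASEH1 in 2, and TWNK, LIG3, PPARGC1B and FASTKD2 in 1 each. Signs changed for TWNK and RNASEH1 with library totals alone, for RNASEH1 in normal libraries alone, for LIG3 and FASTKD2 with DESeq2, for LIG3 also with oocytes as samples, and for LIG3 and PPARGC1B in deficient libraries alone. The cause was not tested. The bounds of PPARGC1A and TOP1MT without single pools or LOC102158401 were added after seeing the data; that of TOP1MT was 246 to 262 with each pool left out and 737 with LOC102158401 left out. Genes under about 1 CPM in pools, POLG, PUS1 and ELAC2 among them, rest on few counts.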
